A study of Mus musculus with 4 samples.

Results

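Excitation-contraction coupling joins an electrical signal at the muscle membrane to the release of calcium that makes the fibre contract. The voltage sensor, an L-type calcium channel of the T-tubule, faces the ryanodine receptor of the sarcoplasmic reticulum at a junction called the triad. The receptor releases calcium from the reticulum, and a pump returns it to the store, where binding proteins hold it. These parts are made mainly by muscle fibres, while satellite cells are the resident stem cells that lie along them. The genes described are 10 of the 18193 genes measured: the channel subunits Cacna1s, Cacnb1 and Cacng1, the release channel Ryr1, the junction proteins Trdn, Jph1 and Jph2, the pump Atp2a1 and the store proteins Casq1 and Srl. They were chosen by function, with earlier results of these data known, so the list was given no test of its own. The genes were taken as the 21 of 45101 probe sets that the platform annotation assigns to exactly 1 of them.

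The arrays hold RNA of satellite cells from hindlimb muscle of C57BL/6J mice, sorted for the surface proteoglycan syndecan-4, with no genetic change or treatment named in the labels. The young group was aged 3 to 6 months and the aged group 20 to 25 months. Each age had 2 independent pools, and the RNA of each pool went on its own array. A pool held the cells of 4 to 8 mice by the series description or 6 to 8 by the sample description, so the spread of single mice is averaged out. By its title, the series asks about p38 signalling in the self-renewal of muscle stem cells with age.

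Each deposited value was relative to the median of its probe set over the 4 arrays, and was taken as log2. Only differences between arrays can therefore be read, no level can be set against another, and no gene can be called present or absent, the defining markers of satellite cells included. The centring also makes the 2 middle values of every probe set mirror each other around 0. In what follows a value is this centred log2 value, and a difference is aged minus young, followed by the standard error of the limma fit (n = 2 pools per age).

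All 10 genes were lower in aged than in young cells, where 46.2% of all genes were. The release channel, the junction proteins, the pump and both store proteins were 3.78-fold to 21.9-fold lower, and in each of these 7 genes both aged pools lay below both young pools. The 3 subunits of the voltage sensor showed no difference with an unadjusted p under 0.05 in limma. Among them Cacna1s was 3.64-fold lower, close to the smallest of the 7, but its aged pools lay far apart, at 0.29 and -3.53. The genes were not tested against each other. The median difference of the 10 genes was -2.50, or 5.67-fold, against 0.05 over all genes, and it was -2.47 between the pools numbered 1 and -2.52 between the pools numbered 2. Every gene was lower within both numbers, where 4557 of all 18193 genes were, though no label says that the numbers pair the pools. In pooled cells, fewer cells or fragments of a type and less RNA per cell cannot be told apart, and markers of mature fibres, given further on, were lower as well.

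No gene of the 10 passed the adjusted threshold of 0.05 in limma, and neither did any of the 18193 genes (0% called), of which 1645 had an unadjusted p under 0.05. With 4 arrays, an exact permutation test of a single gene cannot give a p below 0.333. Of the 10 genes, 7 were lower with an unadjusted p under 0.01, where 2.60% of all genes were, and the same 7 with an unadjusted p under 0.05, where 6.19% of all genes were. The 7 genes with an unadjusted p under 0.01 became 4 without young replicate 2 and 4 without aged replicate 2. The ages did not overlap, with aged lower, in 8 of the 10, against 16.9% of all genes. At least 4-fold lower were 6 of the 10, against 2.43% of all genes.

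**Figure D1:**
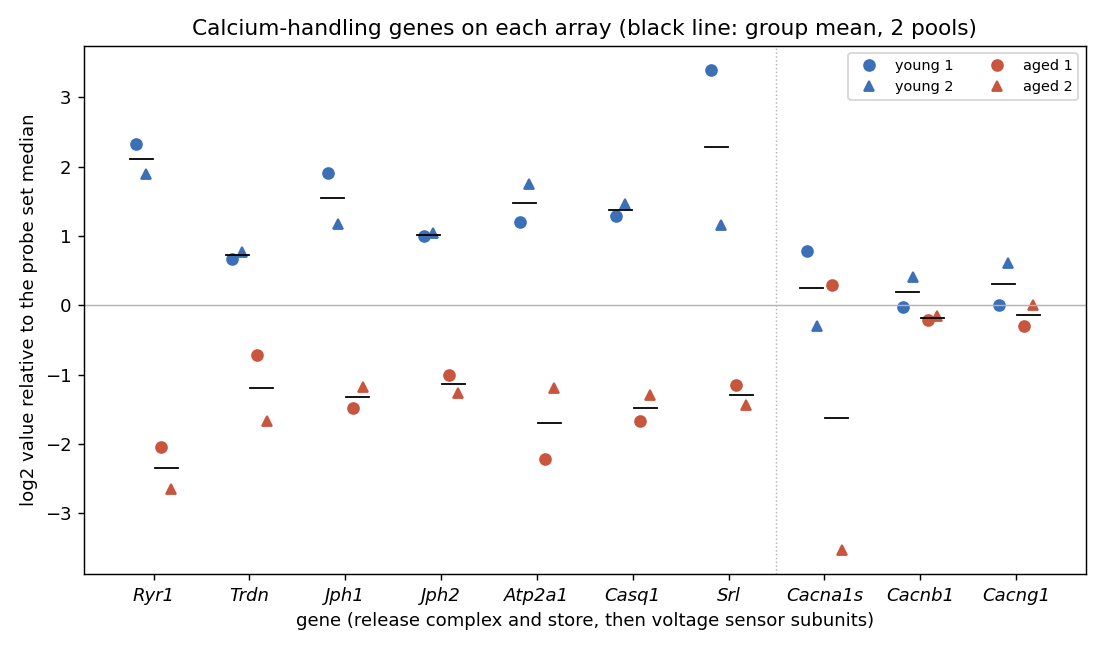
Centred log2 value of each gene (vertical axis) on each of the 4 arrays, with young pools in blue, aged pools in red and black lines for the group means. In the 7 genes left of the dotted line both aged pools lie below both young pools, while Cacna1s and Cacng1 on the right overlap.

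Ryr1, the calcium release channel of the skeletal muscle reticulum, had the largest difference of the 10. Its values were 2.33 and 1.89 in the young pools and -2.04 and -2.65 in the aged pools. The aged pools lay far below the young ones, and the gap between ages was several times the gap within either. The difference was -4.45 ± 0.42, or 21.9-fold lower (adjusted p = 0.0998 with limma), and by its p Ryr1 stood at rank 8 of all 18193 genes. Its probe sets 1427306_at and 1457347_at, designed on different source sequences, gave -4.33 ± 0.67 and -4.57 ± 0.40. Pools of either age lay farther apart on 1427306_at, at 2.34 and 1.60 in the young and -1.60 and -3.12 in the aged.

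Trdn encodes triadin, a reticulum membrane protein that anchors calsequestrin to the release channel. The gene mean was 0.67 and 0.76 in the young pools and -0.72 and -1.67 in the aged pools. The difference was -1.92 ± 0.45 (adjusted p = 0.270 with limma), and it hid a split among its 6 probe sets. The 3 probe sets designed on 1 source sequence, 1426142_a_at, 1426143_at and 1426144_x_at, were lower by large amounts, at -2.96 ± 0.58, -3.78 ± 1.06 and -3.00 ± 0.70. Their young values lay between 1.01 and 1.18, and aged 1 and aged 2 lay apart from each other, at -1.12 and -4.16 in 1426143_at. The difference of 1426143_at was -2.27 without aged replicate 2 and -5.30 without aged replicate 1. A further probe set on another source sequence, 1451801_at, stood at -1.48 ± 0.43. The remaining pair, 1426134_at and 1451940_x_at, shared the last source sequence, and there the ages overlapped, with differences of 0.27 ± 0.45 and -0.55 ± 0.48. Probe sets on 1 source sequence may share target, so they cannot be taken as independent measurements. Which triadin transcripts each sequence stands for is not given in the sources used here.

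The junctophilins hold the T-tubule and the reticulum together at the triad. Jph1, the form most typical of skeletal muscle, had values of 1.91 and 1.17 in the young pools and -1.48 and -1.17 in the aged pools. Its difference was -2.87 ± 0.43, or 7.30-fold lower (adjusted p = 0.149 with limma). Both of its probe sets, 1421520_at at -3.34 ± 0.49 and 1438428_at at -2.40 ± 0.45, had every aged pool below every young pool. Jph2, which is also found in heart, gave 0.99 and 1.05 in the young pools and -1.00 and -1.27 in the aged pools, the tightest young pair of the 10 genes. Its difference was -2.16 ± 0.36, or 4.46-fold lower (adjusted p = 0.157 with limma), from probe sets 1421453_at at -1.91 ± 0.39 and 1455404_at at -2.40 ± 0.43.

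Atp2a1, the calcium pump of fast fibres, was measured by 1 probe set, 1419312_at, with 1.20 and 1.75 in the young pools and -2.21 and -1.20 in the aged pools. The difference was -3.18 ± 0.50, or 9.06-fold lower (adjusted p = 0.150 with limma). Casq1, calsequestrin of fast fibres and the main calcium-binding protein inside the store, gave 1.29 and 1.46 in the young pools and -1.66 and -1.29 in the aged pools on probe set 1422598_at. It was 7.20-fold lower, with a difference of -2.85 ± 0.37 (adjusted p = 0.117 with limma). Among the 10 genes the profile of Casq1 over the 4 arrays was the nearest to that of Atp2a1, and the reverse, at a Euclidean distance of 0.623.

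Srl encodes sarcalumenin, a glycoprotein that binds calcium in the lumen of the reticulum. Its only probe set, 1436867_at, gave 3.39 in young 1 and 1.16 in young 2, against -1.16 and -1.45 in the aged pools. The ages did not overlap, but the young pools differed from each other by nearly as much as young 2 differed from the aged pools. The difference was -3.58 ± 0.76, or 11.9-fold lower (adjusted p = 0.215 with limma), and it was -2.46 without young replicate 1 and -4.70 without young replicate 2.

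Among the voltage sensor subunits, Cacna1s, the pore-forming subunit that senses the membrane voltage, gave 0.78 and -0.29 in the young pools and 0.29 and -3.53 in the aged pools on probe set 1420442_at. Aged 2 alone lay low, and aged 1 lay between the young pools. The difference of -1.86 ± 1.24 (adjusted p = 0.798 with limma) became 0.05 without aged replicate 2 and -3.78 without aged replicate 1. Cacng1, a transmembrane subunit that restrains the channel, gave -0.0022 and 0.61 in the young pools and -0.30 and 0.0022 in the aged pools on probe set 1422813_at, with a difference of -0.45 ± 0.41 (adjusted p = 0.863 with limma). With 1 array left out it ran from -0.76 without young replicate 1 to -0.15 without young replicate 2.

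Cacnb1, the cytosolic subunit that brings the channel to the triad, had a gene mean of -0.02 and 0.41 in the young pools and -0.22 and -0.15 in the aged pools. Its ages did not overlap, yet the difference of -0.38 ± 0.38 was about as large as its standard error (adjusted p = 0.879 with limma). Of its 4 probe sets, 1426108_s_at alone kept the ages apart, at -1.60 ± 0.76, with 0.09 and 1.60 in the young pools and -1.40 and -0.09 in the aged pools. That value became -2.35 without young replicate 1, -0.84 without young replicate 2, -0.94 without aged replicate 1 and -2.25 without aged replicate 2. The others gave 0.15 ± 0.41 for 1425777_at, 0.07 ± 0.45 for 1451834_at and -0.15 ± 0.46 for 1440940_at, all with overlapping ages. Whether the quiet probe sets of Cacnb1, Cacng1 and Trdn measured RNA above background cannot be read from centred values.

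Over all 21 probe sets, 18 were lower and 3 higher in aged cells, where 45.5% of all probe sets were lower, with a median difference of -2.40, against 0.06 over all 45037 probe sets that are no controls. The ages did not overlap in 14, all lower, against 14.8% of all probe sets, and 11 were lower with an unadjusted p under 0.01 in limma, against 1.80%. No probe set passed the adjusted threshold (0% called), and the smallest adjusted p was 0.290.

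**Figure D2:**
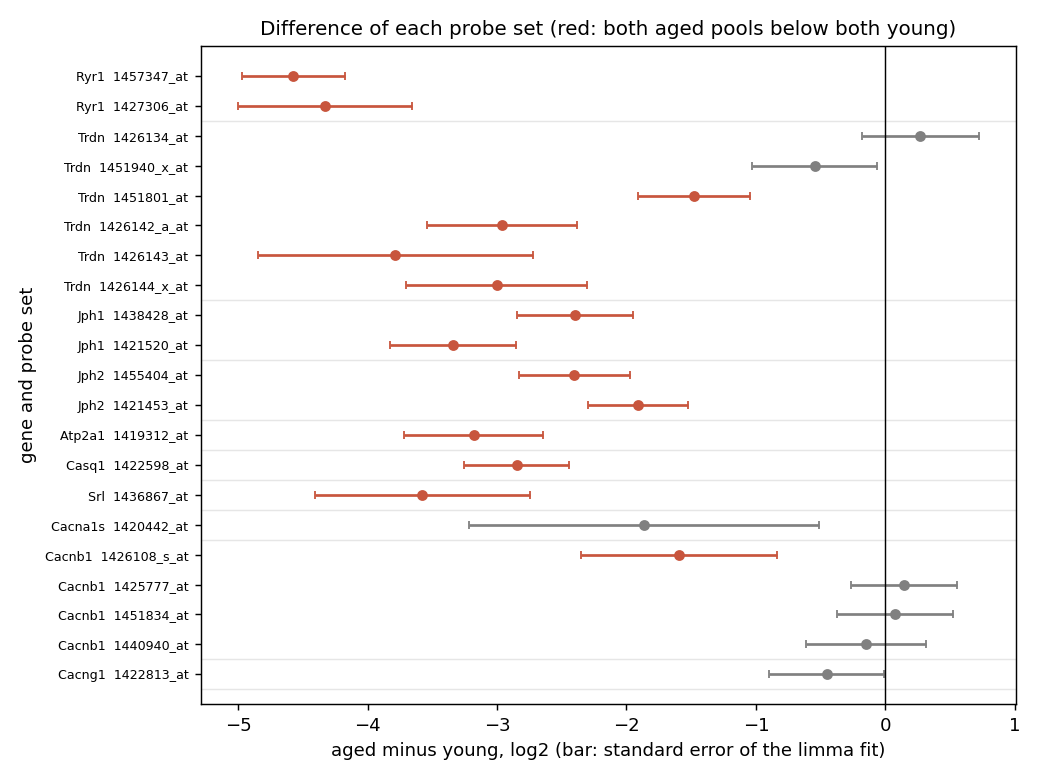
Aged minus young difference of each of the 21 probe sets (horizontal axis, log2), with the standard error of the limma fit as a bar. Red marks the 14 probe sets in which both aged pools lie below both young pools. The probe sets of Ryr1, Jph1 and Jph2 lie close together within each gene, while those of Trdn run from -3.78 to 0.27 and those of Cacnb1 from -1.60 to 0.15.

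Ordered by size, the differences ran from Ryr1 through Srl, Atp2a1, Jph1, Casq1, Jph2, Trdn and Cacna1s to Cacng1 and Cacnb1. In all 9 neighbouring pairs of this order the gap was smaller than the sum of their standard errors. That sum is no test of a step, since the genes share the same 4 arrays, and the order was not tested. The mean profile of the 10 genes was 1.25 and 1.00 in the young pools and -1.05 and -1.44 in the aged pools. By Euclidean distance over the 4 arrays, after taking each gene's own mean off, the 5 nearest of 18183 other genes were Casp8ap2 (0.103), Ccng1 (0.153), Asb8 (0.177), the macrophage marker Adgre1 (0.205) and Tuba8 (0.227).

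Sequence upstream of the start was looked at because most of these genes were lower together. RefSeq promoters of build GRCm38.p6 matched 6 of the 10 genes, with 8 start sites. The 250 bases before each start were searched on both strands for the E-box CANNTG, which reads the same on either strand and is bound by the myogenic regulators, for the MCAT element CATTCC, and for the MEF2 and CArG motifs. An E-box was found for 5 of the 6 genes and at 6 of the 8 start sites, against 66.2% of all 32851 promoters of that length. MCAT was found at 1 start site, that of Cacna1s, against 12.6% of all promoters. MEF2 and CArG motifs, held by 2.92% and 1.47% of all promoters, had no match in these windows. Shown are the 120 bases before the outermost annotated start of the release channel, the pump, calsequestrin and, as the voltage sensor subunit with an unstable difference, Cacna1s, 5′ to 3′ on the gene's strand, with E-boxes that lie wholly inside in capitals.
Ryr1, chr7:29125180-29125299, minus strand: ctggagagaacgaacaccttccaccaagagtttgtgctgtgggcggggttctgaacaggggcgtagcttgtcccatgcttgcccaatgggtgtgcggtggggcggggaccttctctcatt
Atp2a1, chr7:126463104-126463223, minus strand: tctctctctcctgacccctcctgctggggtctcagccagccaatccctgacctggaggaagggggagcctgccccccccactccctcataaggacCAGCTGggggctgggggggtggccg
Casq1, chr1:172219896-172220015, minus strand: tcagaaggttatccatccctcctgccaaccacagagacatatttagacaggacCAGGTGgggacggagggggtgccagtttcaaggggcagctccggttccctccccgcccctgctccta
Cacna1s, chr1:136052686-136052805, plus strand: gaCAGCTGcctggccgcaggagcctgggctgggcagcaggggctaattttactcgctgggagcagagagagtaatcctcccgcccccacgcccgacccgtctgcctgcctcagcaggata
The E-boxes shown for Atp2a1 and Cacna1s have the same 6 letters. Ryr1 had no match to any of the 4 motifs in its 250 bases. These matches describe letters and show no binding, and their part in the differences between ages was not tested.

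Of 60 other calcium-handling genes listed by role, 53 were measured. They were lower in 31 cases and higher in 22, with a median difference of -0.18, beside -2.50 for the 10 genes above. That median was -0.49 when each gene took its most variable probe set and -0.31 without young replicate 2. The ages did not overlap in 21 of the 53 with aged lower, against 16.9% of all genes. With aged higher they did not overlap in 6, against 3618 of all 18193 genes. An unadjusted p under 0.05 in limma was reached by 7, all lower, against 6.19% of all genes, and by none of the higher ones, against 2.85%. None passed the adjusted threshold. Those 7 were spread over 6 of the 7 roles, and store refilling had none.

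Among them were a pump inhibitor, a channel of the reticulum and a calcium buffer. Mrln, myoregulin, a small inhibitor of the pump, gave 1.71 and 0.90 in the young pools and -1.45 and -0.90 in the aged pools, with a difference of -2.48 ± 0.46 (adjusted p = 0.173 with limma). Tmem38a, a potassium channel of the muscle reticulum that balances the charge of calcium release, stood at -2.49 ± 0.49 (adjusted p = 0.196 with limma), and both of its probe sets were lower. Pvalb, the cytosolic calcium buffer of fast fibres, gave 1.05 and 0.87 in the young pools and -0.87 and -1.38 in the aged pools, a difference of -2.08 ± 0.39 (adjusted p = 0.177 with limma). For these 3 genes the aged pools lay below the young pools without overlap, as for the junction proteins.

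Smaller differences were seen in Bin1, which shapes the T-tubule (-1.41 ± 0.41), in the calcineurin subunit Ppp3ca (-1.24 ± 0.36), in the triad protein Jsrp1 (-1.20 ± 0.39) and in Cacna2d1, the extracellular subunit of the voltage sensor (-0.97 ± 0.38). The 5 probe sets of Cacna2d1 ran from -2.38 to 1.53 and the 3 of Ppp3ca from -2.83 to -0.35, so their means rest on probe sets that disagree. Stac3, an adaptor needed for the voltage sensor to reach the release channel, gave 1.03 and -0.07 in the young pools and 0.07 and -1.42 in the aged pools. As in Cacna1s, its ages overlapped and aged 2 was the lowest (-1.15 ± 0.66).

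Other isoforms of these families, typical of other tissues or of muscle as well, had differences between -0.99 and 0.49. The cardiac release channel Ryr2 stood at 0.42 ± 0.52 and the widely expressed Ryr3 at 0.34 ± 0.43, beside -4.45 for Ryr1. The pumps Atp2a2, of slow muscle, heart and many other cells, and Atp2a3, of non-muscle cells, stood at -0.18 ± 0.64 and 0.34 ± 0.67, beside -3.18 for Atp2a1. The 6 probe sets of Atp2a2 ran from -1.58 to 1.65. Among junctophilins, the neuronal forms Jph3 and Jph4 stood at 0.46 ± 0.45 and 0.07 ± 0.38. Casq2, calsequestrin of heart and slow fibres, was lower without overlap at -0.99 ± 0.51. The cardiac and neuronal channel subunits Cacna1c (-0.18 ± 0.36), Cacna1d (0.49 ± 0.36), Cacnb2 (-0.18 ± 0.37) and Cacnb4 (0.43 ± 0.42), and the muscle subunit Cacng6 (-0.28 ± 0.43), all lay within 1.5 standard errors of 0. Among these subunits the ages did not overlap in Cacna1c, with aged lower, and in Cacna1d, with aged higher. The 2 probe sets of Cacna1c ran from -0.41 to 0.06 and the 2 of Cacna1d from 0.06 to 0.92. The differences between isoforms were not tested against each other.

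**Figure D3:**
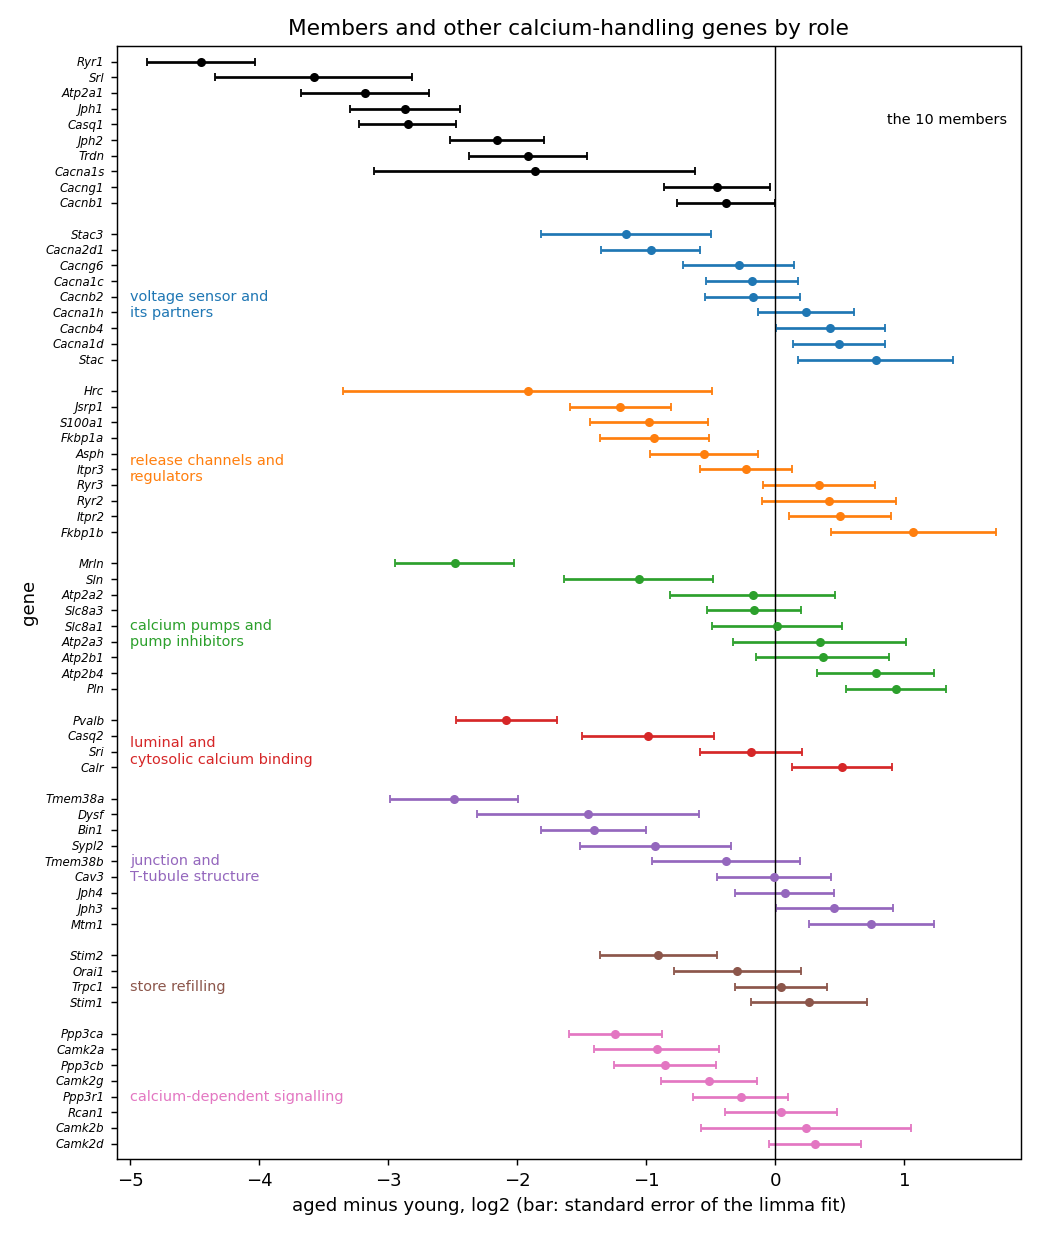
Aged minus young difference (horizontal axis, log2) of the 10 genes in black and of 53 other calcium-handling genes coloured by role, with the standard error of the limma fit as a bar. Ryr1, Srl and Atp2a1 lie lowest, and Tmem38a, Mrln and Pvalb lie lowest among the others, which run from -2.49 to 1.07 with a median of -0.18.

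Markers of mature fibres moved with these genes. All 16 listed fibre genes outside calcium handling were lower in aged cells, without overlap, against 16.9% of all genes, and 14 had an unadjusted p under 0.01 in limma, against 2.60%. Their median difference was -2.84, and their median value was 1.28 and 1.24 in the young pools and -1.29 and -1.28 in the aged pools. Their part in the result was not tested. Set against the fibre median of each array, Casq1 and Jph1 differed between ages by -0.30 and -0.32 and Atp2a1 by -0.63. Jph2 and Trdn differed by 0.39 and 0.63. Srl differed by -1.03, with 2.11 in young 1 and -0.08 in young 2. Cacna1s differed by 0.68, with 1.58 in aged 1 and -2.25 in aged 2. Ryr1 differed by -1.91 from that median, although 1 fibre marker, Myoz1 at -4.55, had a larger difference than Ryr1. Cacnb1 and Cacng1 differed by 2.16 and 2.09 relative to the median, though their own differences were -0.38 and -0.45. Any gene with little difference between ages gets such a value, because the fibre median itself was lower in aged cells. These relative differences were not tested.

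Lists of markers of other cell types had medians nearer to 0, though single genes differed by more than the median of the 10 genes. Satellite cell markers had a median difference of 0.05, with 6 of 10 higher and 4 lower, and the median value lay between -0.20 and -0.04 in the young and between 0.22 and 0.24 in the aged pools. Among them Pax7, the transcription factor that defines these cells, stood at 2.31 ± 0.36 and Myf5 at 2.56 ± 0.63. Sdc4, the protein of the sort, stood at 1.22 ± 0.53 and Chrdl2 at 0.76 ± 0.39. Each of these was higher in aged cells without overlap. In the other markers of the list the ages overlapped, with differences from -0.29 ± 0.43 for Cd34 to 0.09 ± 0.37 for Itga7. Of 7 cardiac markers 5 were lower (median -0.49), and of 10 smooth muscle and pericyte markers 9 were higher (median 0.74, with Rgs5 at 2.93 ± 0.58). Macrophage markers were lower in 5 of 7 cases (median -1.13, with Adgre1 at -2.42 ± 0.36), while Cd14 stood at 0.35 ± 0.48 and Lyz2 at 0.05 ± 0.39. Endothelial markers were lower in 7 of 8 cases (median -0.43), but the ages were apart in only 1, Tie1. Of all genes, 46.2% were lower. Of 6 markers of fibro-adipogenic progenitors 5 were higher (median 0.71), and so were 4 of 4 nerve and Schwann cell markers (median 0.65). The part of these cell types in the differences of the calcium-handling genes was not tested.

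**Figure D4:**
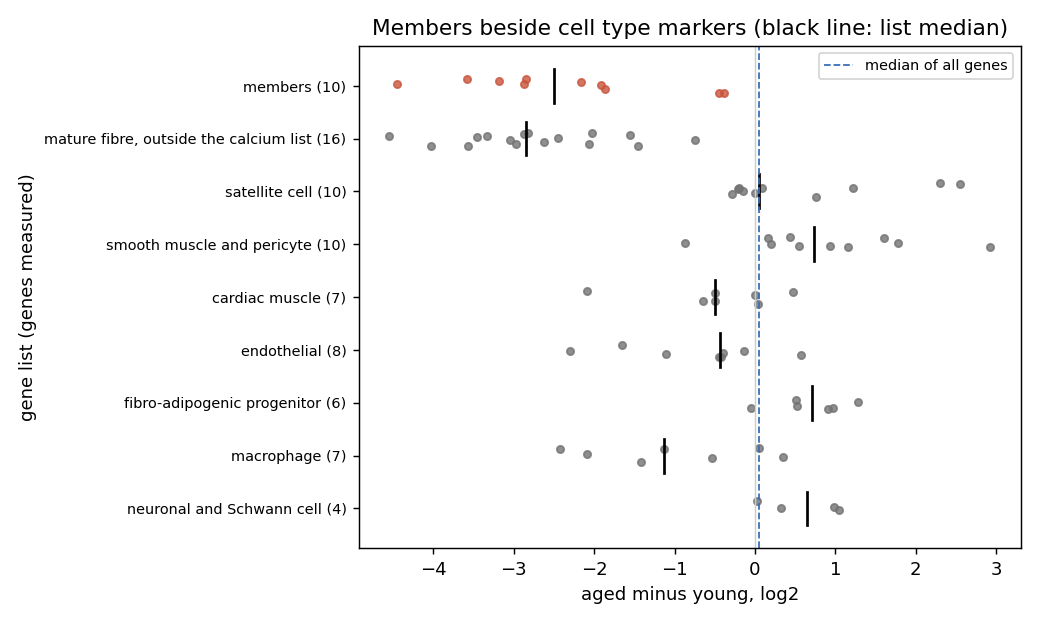
Aged minus young difference (horizontal axis, log2) of the 10 calcium-handling genes in red and of cell type marker genes in grey, 1 point per gene, with a black line for each list's median. The calcium-handling genes, at a median of -2.50, and the mature fibre markers, at -2.84, lie lowest, and the dashed line marks the median of all genes at 0.05.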

How the data were processed

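The authors deposited 1 table of 45101 probe sets on 4 arrays. The deposited values are taken as log2, and every probe set was centred, since its median over the arrays is 0 within 5e-07. Not given in the sources used here are the logarithm's base, the direction (higher meaning more RNA), the probe summary and how arrays were normalized. Another base would change every fold. Per the labels' protocols, RNA went through 2 rounds of T7 amplification, which can distort ratios. The number of arrays limits the precision.

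Gene names came from the platform annotation, and 34741 were matched by Entrez ID to current symbols. Probe sets with 1 symbol (34945) were averaged into 18193 genes. Those with several symbols (932) or none (9160) and 64 controls were left out. Ages were compared over all genes, and separately over all 45037 probe sets, with limma 3.58.1 in R 4.3.3 (lmFit, eBayes without trend, two-sided, Benjamini-Hochberg; 2 residual and 3.56 prior degrees of freedom). The fit was run on simulated data to check that it returned known differences, which is no check of its p-values on the deposited values. A dim-gene filter, offsets and levels could not be applied to centred values. Figures used matplotlib 3.10.9.

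The members, the other calcium-handling genes, the marker lists and the tests were chosen with earlier results of these data known. All members were named, and of the wider list those with an unadjusted p under 0.05 and a listed set of isoforms and partners of members, Stac3 included, whatever their values. Cacnb3, which was to be named, and a few other listed genes are not reported here.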

Additional observations from a re-analysis of the deposited data

How the results depend on the processing

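The 10 genes were recomputed under 11 other settings. All 10 were lower under every setting but 2, each with 9: Cacnb1 stood at 0.0247 when _x_at and _s_at probe sets were dropped, and Cacna1s, with its probe set 1420442_at, ran from -3.78 to 0.0508 with 1 array left out, the last without aged replicate 2. The median difference of -2.50 became -2.38 with quantile normalization and -3.01 when each gene took its most variable probe set, and ran from -2.67 to -2.32 with 1 array left out. Of the 10, 7 were lower with an unadjusted p under 0.01 in limma, and from 4 to 7 with 1 array left out (4 without young replicate 2 or aged replicate 2). With a variance trend on the mean, which is no level in centred values, 221 genes had an adjusted p under 0.05 in place of 0, among them Ryr1, Atp2a1, Casq1, Jph1 and Jph2. The replicate numbers are shared by both ages, but no label says that they pair the pools. Pools with 1 number deviated together over genes with a correlation of 0.138, and with the replicate block 6 genes of the 10 were lower with an unadjusted p under 0.01 and 0 of all genes passed adjustment. With 1 array left out, single probe sets with small differences changed sign, and ran from -0.219 to 0.368 for 1451834_at, from -0.0149 to 0.308 for 1425777_at, from -0.534 to 0.240 for 1440940_at and from -0.0184 to 0.559 for 1426134_at. The filter on dim genes and the log2 offsets were not run, since the values are centred. Signal over background is unknown.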
